A study of Mus musculus with 12 samples.

Results

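The genes described here build or bind the cytoskeleton: the tubulin genes Tuba1a, Tubb2a, Tubb2b and Tubb6, the tubulin- and actin-binding gene Dpysl3, the actin genes Actb and Actg1, the thymosin genes Tmsb4x and Tmsb10, and the intermediate filament gene Vim. They were chosen by name, each through its probe set with the highest mean. Of the 10 listed genes, 9 had a probe set, 1 each, among the 11861 genes with values, and Actg1 was not analysed here. Each of 12 arrays measured RNA of hepatocyte spheroids, the compact balls that liver cells form where they cannot attach. All mice were C57BL/6, a common inbred strain. The 6 groups, of 2 arrays each, were male and female spheroids at culture days 1, 7 and 14 after spheroid formation. The 4 preparations, called male 1, male 2, female 1 and female 2 below, were each a frozen pool of liver cells from 3 animals and were sampled at all 3 days, so spread between them is spread between pools. No treatment or genotype set the groups apart, and the ages of the mice were not given in the sources used here.

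Values are log2 levels as deposited, so that a difference of 1 is a doubling. Array medians lay between 7.47 and 7.53, and the highest value in the table was 12.84. No probe set stayed under 4.79 on all arrays, which shows that dim ones had been taken out, and the 9 genes are among those kept. The label of hepatocyte fits the levels of Alb and Hnf4a. The main plasma protein gene Alb averaged 12.73 at day 1, 12.76 at day 7 and 12.74 at day 14, near the highest value in the table. The hepatocyte transcription factor gene Hnf4a averaged 11.37, 11.30 and 11.22. Of the hepatocyte markers, 25 of 28 had a probe set. Their means ran from 5.44 for Pck1 to 12.73 for Alb at day 1 and from 4.41 for Cyp2e1 to 12.74 for Alb at day 14. Pck1 and Cyp2e1 were chosen after their values were seen.

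Microtubules are hollow tubes of alpha- and beta-tubulin pairs, and vertebrates carry several isotypes of each, which tissues use in different mixtures. Actin filaments form the cell cortex and grow from free actin monomers, which beta-thymosins bind and hold in reserve. Hepatocytes of the intact liver rely on keratins for their intermediate filaments, while vimentin marks mesenchymal cells and has been described in hepatocytes that lose their identity on plastic. Spheroid culture is used to slow that loss, known as dedifferentiation.

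The 250 bases before the transcript start are shown for 4 genes whose levels were higher at day 14 than at day 1 (RefSeq, GRCm38.p6). Their courses between those days were not all alike. In the promoter table used, 6 of the 10 listed genes had an entry. The windows are Tmsb4x at chrX:167209219-167209468, minus strand, Tuba1a at chr15:98953502-98953751, minus strand, Tubb2a at chr13:34078009-34078258, minus strand and Vim at chr2:13574061-13574310, plus strand, each 5′ to 3′ along its gene. Capitals mark CCAAT and TATAA, read on both strands.
Tmsb4x: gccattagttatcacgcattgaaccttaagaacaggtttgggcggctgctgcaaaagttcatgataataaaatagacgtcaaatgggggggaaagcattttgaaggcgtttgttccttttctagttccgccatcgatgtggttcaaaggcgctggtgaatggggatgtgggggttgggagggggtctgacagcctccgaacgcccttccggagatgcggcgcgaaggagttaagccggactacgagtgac
Tuba1a: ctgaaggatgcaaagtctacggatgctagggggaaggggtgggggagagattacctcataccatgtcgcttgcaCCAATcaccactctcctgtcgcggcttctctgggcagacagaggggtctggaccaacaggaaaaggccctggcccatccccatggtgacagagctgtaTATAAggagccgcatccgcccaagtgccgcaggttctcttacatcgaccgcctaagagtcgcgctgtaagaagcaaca
Tubb2a: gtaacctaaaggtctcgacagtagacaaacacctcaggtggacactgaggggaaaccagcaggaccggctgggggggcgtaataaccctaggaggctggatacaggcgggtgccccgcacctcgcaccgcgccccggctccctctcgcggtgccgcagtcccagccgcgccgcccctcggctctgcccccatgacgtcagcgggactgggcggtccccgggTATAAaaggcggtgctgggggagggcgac
Vim: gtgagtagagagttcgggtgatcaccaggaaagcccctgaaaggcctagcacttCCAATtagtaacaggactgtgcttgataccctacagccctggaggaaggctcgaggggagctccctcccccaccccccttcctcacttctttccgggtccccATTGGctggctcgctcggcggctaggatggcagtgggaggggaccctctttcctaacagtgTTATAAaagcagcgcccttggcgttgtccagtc
TATAA stood in the windows of Tuba1a, Tubb2a and Vim, and in 22.8% of the 32851 promoter windows of the same length. In Vim it was read on both strands, and the matches overlap. CCAAT stood in Tuba1a once and in Vim in both orientations, against 33.8% of all windows, and the Tmsb4x window held neither motif. The CArG box, the motif of serum response factor, which many actin-cytoskeleton genes carry, was in none of the 4 windows and in 1.47% of all windows. These matches describe letters and were tested for nothing.

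Dpysl3 encodes CRMP4, a collapsin response mediator protein known from growing nerve cells, where it binds microtubules and actin. Its log2 level at day 1 was 6.59 in male 1, 5.49 in male 2, 4.91 in female 1 and 5.47 in female 2. At day 7 it was 8.27, 7.95, 6.56 and 7.25 in the same order, and at day 14 it was 9.61, 9.27, 8.42 and 8.76. The level was higher at each later day in all 4 preparations, and the days 14 and 1 did not overlap. Day 14 against day 1 gave a rise in Dpysl3 of 3.40 ± 0.27 log2 units (standard error, from 4 preparations at each day), a 10.6-fold change (limma, adjusted p = 0.000243). Outside male 1 the day 1 levels of 4.91 to 5.49 were low on the scale, and the size of the fold depends on them. The first week brought 1.90 ± 0.27 (adjusted p = 0.0086). For the second week the change was 1.51 ± 0.27 with an adjusted p of 0.0561. Blocking on preparation, which was sampled at all days, brought this to an adjusted p of 0.0155.

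Tubb2b, a beta-tubulin isotype prominent in the developing nervous system, followed the same course. Its level at day 1 was 8.40 in male 1, 8.02 in male 2, 7.12 in female 1 and 7.11 in female 2. By day 7 it stood at 9.0, 8.86, 8.14 and 8.09, and by day 14 at 9.62, 9.41, 9.08 and 8.97. Every preparation gained in both weeks, and the lowest day 14 array was above the highest day 1 array. Tubb2b rose by 0.86 ± 0.09 in day 7 against day 1 (adjusted p = 0.00336), by 0.75 ± 0.09 in day 14 against day 7 (adjusted p = 0.0219) and by 1.61 ± 0.09, or 3.04-fold, in day 14 against day 1 (limma, adjusted p = 7.51e-05).

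Tuba1a, the alpha-tubulin isotype that partners such beta-tubulins in young neurons, had levels at day 1 of 8.45 in male 1, 8.26 in male 2, 7.39 in female 1 and 7.38 in female 2. Levels were 8.61, 8.74, 7.81 and 8.0 at day 7 and 9.26, 9.06, 8.60 and 8.59 at day 14. The 4 preparations climbed in both weeks, and the males stayed above the females. Tuba1a rose by 0.42 ± 0.08 over the first week (adjusted p = 0.0227), by 0.59 ± 0.08 over the second (adjusted p = 0.0267) and by 1.01 ± 0.08, or 2.01-fold, over both (limma, adjusted p = 0.000243). Of its closest relatives, both chosen after their values were seen, Tuba1b averaged 10.98, 10.94 and 10.93 and Tuba1c 11.70, 11.71 and 11.73 at days 1, 7 and 14. Their changes in day 14 against day 1 were -0.05 ± 0.05 (adjusted p = 0.617) and 0.03 ± 0.06 (adjusted p = 0.782).

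The other beta-tubulin members moved less. Tubb2a, the near-identical relative of Tubb2b, had levels of 10.35 in male 1, 10.30 in male 2, 10.34 in female 1 and 10.45 in female 2 at day 1. At day 14 they were 10.74, 10.80, 10.70 and 10.53, all above every day 1 array, though female 2 gained only 0.08. Tubb2a rose by 0.34 ± 0.06, or 1.26-fold, in day 14 against day 1 (limma, adjusted p = 0.00938), while neither week passed alone (0.11 ± 0.06, adjusted p = 0.383, and 0.23 ± 0.06, adjusted p = 0.161). The second week passed with a trended and robust spread (adjusted p = 0.0231). The change of Tubb2b exceeded that of Tubb2a by 0.82, 0.88, 1.60 and 1.78 in male 1, male 2, female 1 and female 2.

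Tubb6, a more divergent beta-tubulin isotype found in many tissues at low levels, went the other way. It stood at 9.45 in male 1, 9.28 in male 2, 9.41 in female 1 and 9.30 in female 2 at day 1. The day 7 levels were 8.98, 9.16, 8.86 and 8.89 and those at day 14 were 8.98, 8.97, 8.90 and 8.61. All day 7 and day 14 arrays lay below all day 1 arrays. Tubb6 fell by 0.39 ± 0.08 on the log2 scale in day 7 against day 1 (adjusted p = 0.0396, or 0.0559 when blocked by preparation) and fell by 0.50 ± 0.08 in day 14 against day 1 (limma, adjusted p = 0.00617). The second week added -0.11 ± 0.08 (adjusted p = 0.631).

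Among the actin and thymosin genes only Tmsb4x passed a test between days. Thymosin beta-4, its product, is the main actin-monomer-binding peptide of many cells. At day 1 its level was 10.27 in male 1, 9.93 in male 2, 9.11 in female 1 and 9.18 in female 2. It came to 10.53, 10.52, 10.16 and 10.10 at day 7 and to 10.95, 10.92, 10.78 and 10.75 at day 14. The 4 preparations were spread widely at day 1 and lay between 10.75 and 10.95 at day 14, all above day 1. Tmsb4x rose by 0.71 ± 0.08 in day 7 against day 1 (adjusted p = 0.00332), by 0.52 ± 0.08 in day 14 against day 7 (adjusted p = 0.0323) and by 1.23 ± 0.08, or 2.34-fold, in day 14 against day 1 (limma, adjusted p = 7.51e-05).

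Its relative Tmsb10 lay between 10.80 and 11.16 on all 12 arrays, with 10.81 to 11.03 at day 7 and 10.88 to 11.16 at day 14, and the days overlapped. The Tmsb10 change in day 14 against day 1 was 0.07 (95% confidence interval -0.07 to 0.21, adjusted p = 0.508). In each preparation the Tmsb4x change was larger, by 0.68 to 1.73. Actb, cytoplasmic beta-actin and a common reference gene, ranged from 12.23 to 12.36 at day 1, 12.19 to 12.26 at day 7 and 12.28 to 12.32 at day 14. Its change in day 14 against day 1 was 0.00 (95% confidence interval -0.13 to 0.12, adjusted p = 0.994). Its levels were near the highest value in the table. The day 14 arrays of Actb lay above those of day 7 without overlap, by 0.08 ± 0.05 (adjusted p = 0.592).

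Vim was already high at day 1, with levels of 11.35 in male 1, 11.16 in male 2, 10.98 in female 1 and 10.89 in female 2. At day 7 the 4 arrays lay between 11.40 and 11.43, and at day 14 they stood at 11.62 and 11.69 in males 1 and 2 and at 11.41 in both females. The females gained 0.41 and 0.53 in the first week and 0.01 and 0.00 in the second, while the males gained 0.08 and 0.26 and then 0.19 and 0.27. Averaged over the sexes, Vim rose by 0.32 ± 0.06 in day 7 against day 1 (adjusted p = 0.0269) and by 0.44 ± 0.06, or 1.36-fold, in day 14 against day 1 (limma, adjusted p = 0.0028). For day 14 against day 7 the change was 0.12 ± 0.06 (adjusted p = 0.454).

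**Figure D1:**
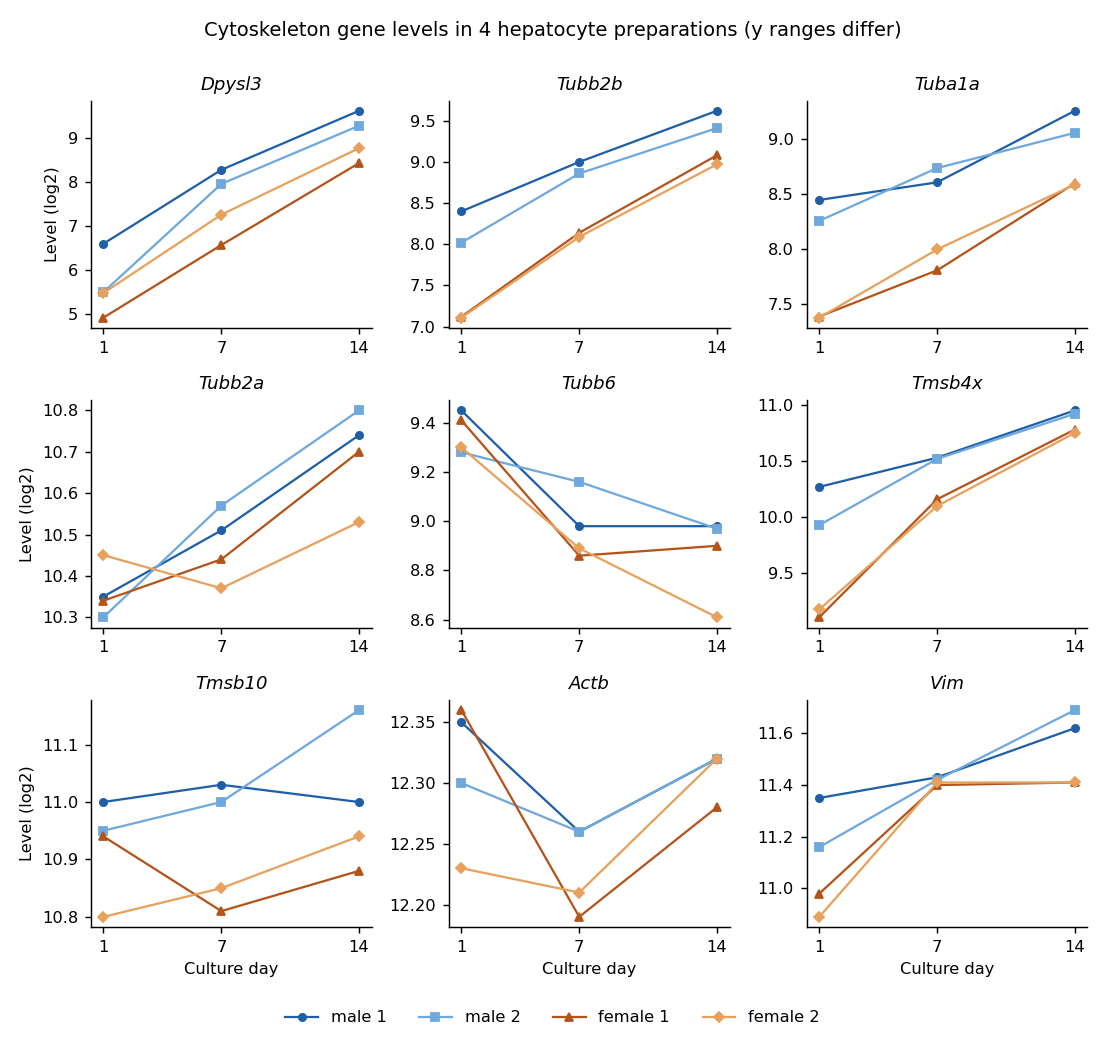
Log2 level (y axis, with its own range in each panel) of the 9 measured genes against culture day (x axis), with 1 line per preparation. Dpysl3, Tubb2b, Tuba1a and Tmsb4x climb in every preparation from day 1 over day 7 to day 14, Tubb6 lies lower at days 7 and 14, and Actb spans only 12.19 to 12.36.

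Counted together, 6 of the 9 genes rose and 1 fell in day 14 against day 1, where 14.4% of all 11861 genes passed the test (7.59% higher, 6.8% lower). In day 7 against day 1, 5 rose and 1 fell, with 4.72% of all genes past the test (2.74% higher, 1.98% lower). In day 14 against day 7, 3 rose and 0 fell, with 0.489% of all genes past it (0.304% higher, 0.185% lower). The median change of the 9 genes was 0.32, 0.23 and 0.44 for days 7 against 1, 14 against 7 and 14 against 1, and that of all genes was 0.00, 0.01 and 0.01. Day 14 lay above day 1 without overlap for 6 genes and below it for 1, as for 15.8% of all genes in either direction (8.25% above, 7.57% below). Day 7 and day 1 did not overlap for Tubb6 and Vim, as for 10.4% of all genes, and day 14 and day 7 did not for Dpysl3, Tmsb4x and Actb, as for 5.21%. Dpysl3, Tubb2b, Tuba1a and Tmsb4x were higher in both weeks in all 4 preparations, a course shared by 2.83% of all genes. The 3 comparisons share arrays, and the genes were chosen with results of these data known, so the counts describe these genes and support nothing further.

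The calls of day 14 against day 1 held for Dpysl3, Tubb2b, Tuba1a and Tmsb4x with any 1 preparation left out, but Vim lost its call without male 2 or female 2 (adjusted p up to 0.0624), Tubb2a without male 1, male 2 or female 1 (up to 0.139) and Tubb6 without male 1, male 2 or female 2 (up to 0.0947). Of the first-week calls, Tubb2b and Tmsb4x were lost without female 1 or female 2 (up to 0.0678 and 0.0707) and Dpysl3, Tuba1a, Vim and Tubb6 whichever preparation was left out (up to 0.0778, 0.194, 0.219 and 0.355), and all 3 second-week calls were lost in each case (0.126 to 0.249).

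**Figure D2:**
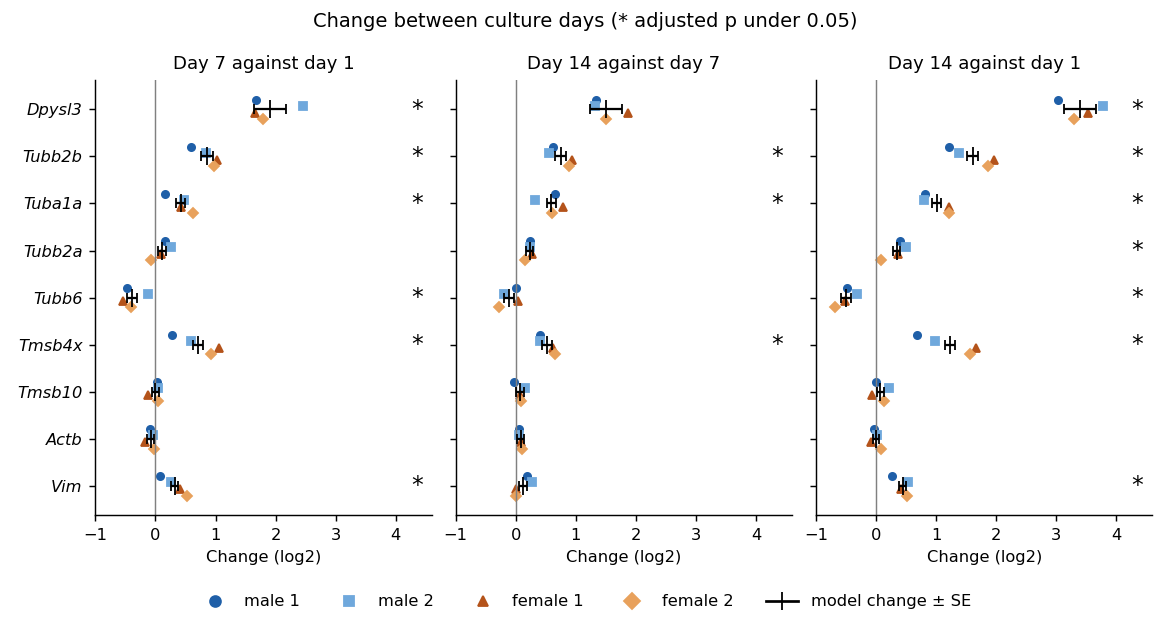
Change in log2 level between culture days (x axis) for each gene (y axis), as 1 point per preparation and the model's mean change with its standard error (black). Asterisks mark an adjusted p under 0.05: 6 of 9 genes in day 7 against day 1, 3 in day 14 against day 7 and 7 in day 14 against day 1, with Dpysl3 farthest to the right in each panel.

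The sex comparison asked whether male and female spheroids differed in these genes. At day 1, Tubb2b, Tuba1a and Tmsb4x were higher in males, with log2 differences of 1.09 ± 0.13, 0.97 ± 0.11 and 0.95 ± 0.11 (standard error, 2 preparations of each sex, limma adjusted p = 0.0092, 0.00688 and 0.00688). These 3 of 9 genes compare with 0.767% of all genes past the test at day 1 (0.346% higher in males, 0.422% lower). At day 7 Tuba1a alone passed, 0.77 ± 0.11 higher in males (adjusted p = 0.0356, with 0.354% of all genes past the test, 0.194% higher and 0.16% lower in males), and Tubb2b stood at 0.81 ± 0.13 (adjusted p = 0.0532). At day 14 none passed by limma, with 1.06% of all genes past the test (0.253% higher and 0.809% lower in males) and 3 of the 9 at an unadjusted p under 0.05. Tuba1a then stood at 0.56 ± 0.11 (adjusted p = 0.0589), Tubb2b at 0.49 ± 0.13 (adjusted p = 0.131) and Tmsb4x at 0.17 ± 0.11 (adjusted p = 0.556).

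Dpysl3 was higher in both males than in both females at every day, by 0.85 ± 0.38 at day 1, 1.20 ± 0.38 at day 7 and 0.85 ± 0.38 at day 14, and did not pass (adjusted p = 0.372, 0.238 and 0.34). In all, 6 of the 9 genes had males above females without overlap at all 3 days (Dpysl3, Tubb2b, Tuba1a, Tmsb4x, Tmsb10 and Vim), as did 5.81% of all genes. Some of these gaps were narrow: the lower male and the higher female stood at 5.49 and 5.47 for Dpysl3 at day 1, at 10.95 and 10.94 for Tmsb10 at day 1 and at 11.42 and 11.41 for Vim at day 7. At single days, males lay above females without overlap for 25.6% of all genes at day 1, 24.9% at day 7 and 22.6% at day 14. For Tubb2a, Tubb6 and Actb the sexes overlapped at day 1. Averaged over the days, with 2 male against 2 female means, none of the 9 passed by limma, with 0.177% of all genes past the test and 5 of the 9 at an unadjusted p under 0.05. Tuba1a came closest, at 0.77 ± 0.07 (adjusted p = 0.0542), then Tubb2b at 0.80 ± 0.10 (0.0753) and Tmsb4x at 0.50 ± 0.07 (0.0805). Each sex call at day 1 or 7 was lost whichever preparation was left out, with adjusted p between 0.0576 and 0.299, and the differences then ran from 0.906 to 1.283 for Tubb2b, 0.872 to 1.062 for Tuba1a and 0.784 to 1.118 for Tmsb4x at day 1.

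The sexes were also compared in how far each gene changed. In day 14 against day 1, Tmsb4x changed by 0.83 in males and 1.62 in females, Tubb2b by 1.30 and 1.91, and Tuba1a by 0.81 and 1.21. The test of that difference, male change minus female change, gave -0.79 ± 0.15 for Tmsb4x (limma, adjusted p = 0.31), -0.61 ± 0.19 for Tubb2b (0.451) and -0.41 ± 0.16 for Tuba1a (0.612). None passed, as for 0.0% of all genes, and 3 of the 9 had an unadjusted p under 0.05. The Dpysl3 change was 3.40 in males and 3.41 in females, with a 95% confidence interval of the difference from -1.21 to 1.21. For day 7 against day 1 the difference passed for none either (0.0% of all genes by limma, 2 of the 9 at an unadjusted p under 0.05).

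**Figure D3:**
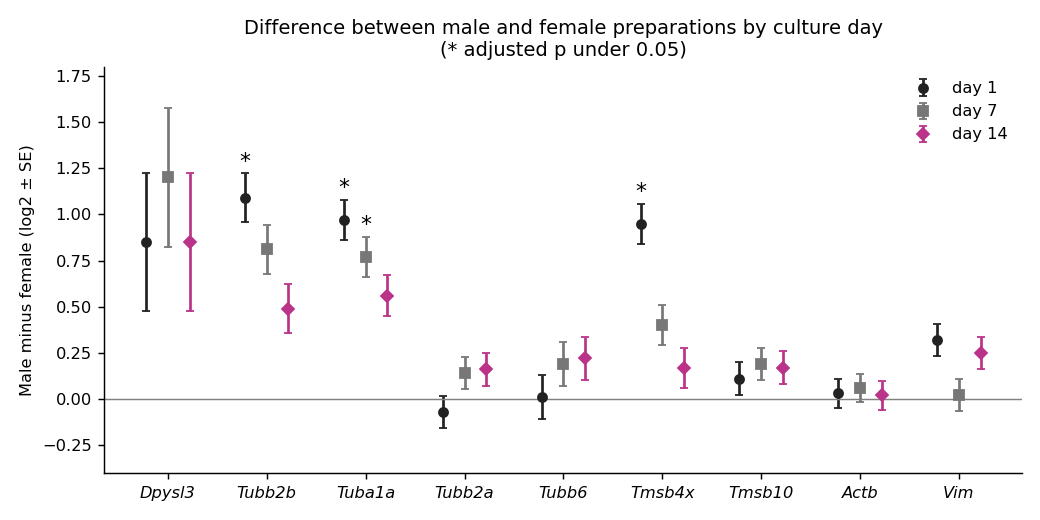
Male minus female log2 level (y axis, ± standard error of the model, 2 preparations per sex) for the 9 genes (x axis) at days 1, 7 and 14. Tubb2b, Tuba1a and Tmsb4x lie near 1 at day 1 and lower at day 14, and asterisks mark an adjusted p under 0.05.

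Other genes shared these courses. Over the 12 arrays, the highest Pearson correlations with Dpysl3 were those of Icam1 (r = 0.975), a cell adhesion receptor gene, Spon2 (0.969), Inava (0.969), Acot2 (0.965), a mitochondrial thioesterase gene, and Dcakd (0.964). Those with Tuba1a were the cadherin gene Cdh6 (0.986), the transcription factor gene Sox4 (0.979), the hyaluronan receptor gene Cd44 (0.977), the giant cadherin gene Fat1 (0.97) and Tubb2b (0.968). Vim was closest to the cyclooxygenase gene Ptgs2 (0.954), Bcam (0.945), the microtubule-associated gene Map1b (0.945), Acot2 (0.938) and Tmsb4x (0.934). Within the listed genes, Tmsb4x and Tubb2b had r = 0.98 and Tubb2b and Tuba1a 0.97, while Dpysl3 and Tubb6 had -0.69 and Dpysl3 and Actb 0.08. The arrays of a preparation share cells and the days share a culture, so these values are descriptions of 12 arrays.

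The other tubulin, actin and filament lists had medians near 0. In day 14 against day 1, 7.59% of all genes rose and 6.8% fell, the shares to set beside each list count. For day 7 against day 1 and day 14 against day 7, 4.72% and 0.489% of all genes passed. Of 12 other tubulin genes measured, 0 passed limma in any day comparison, and their median change in day 14 against day 1 was -0.02 (Tube1, epsilon-tubulin, was the farthest at -0.46 ± 0.14, adjusted p = 0.0591). Tube1 did pass after a second quantile normalization (-0.47, adjusted p = 0.046) and without female 1 (-0.66, adjusted p = 0.0257). Of 28 genes listed as microtubule-associated and tubulin-modifying, 4 rose and 1 fell (median 0.08). The 4 rises named by rule were Map1b, a microtubule-binding protein of growing axons, by 2.09 ± 0.18, Marcks by 1.23 ± 0.09, Stmn1, which destabilizes microtubules, by 0.50 ± 0.12, and Mapre2, a microtubule end-binding protein, by 0.48 ± 0.09. Marcks, an actin-binding kinase substrate, stood in this list although its title names microtubules and tubulin. Dpysl2, the only other collapsin response mediator gene with a probe set, rose by 0.68 ± 0.11 (adjusted p = 0.00469).

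Of 54 actin-binding genes, 5 rose and 4 fell in day 14 against day 1 (median 0.01), where 7.59% of all genes rose and 6.8% fell. These shares also stand beside the other counts of this paragraph. When blocked by preparation, 7 of the 54 rose and 2 fell. No share of all genes past the test was counted with the block, here or below. The severing protein gene Gsn rose by 0.92 ± 0.18, Pls1, which bundles actin in microvilli, by 0.87 ± 0.11, the focal adhesion gene Vcl by 0.56 ± 0.12 and the filament cross-linker gene Flna by 0.50 ± 0.07. Of 5 other actin and actin-related genes none passed by limma, and smooth-muscle actin Acta2 stood at -1.46 ± 0.48 (adjusted p = 0.0792, or -2.07 and 0.0193 without male 2). Among 18 genes of serum response factor, its MRTF partners and their targets, 3 rose and 2 fell (median -0.05). Ccn1 rose by 0.87 ± 0.13 and Ccn2 fell by 0.90 ± 0.19 on the log2 scale, both genes of secreted matrix-associated proteins. The list also holds Vcl and Flna.

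For the next 3 lists too, the shares of all genes were 7.59% higher and 6.8% lower. Of 11 other intermediate filament and lamin genes 2 rose, the keratin genes Krt23 by 2.54 ± 0.23 and Krt19 by 1.81 ± 0.16 (median 0.00), both with a day 1 mean under 4.79. Blocking on preparation added a fall of the keratin gene Krt7, chosen after its values were seen, with a change of -0.56 (adjusted p = 0.018, or 0.134 without the block). In the integrin and focal adhesion list 2 of 17 rose and 2 fell (median -0.01): Itgb4, of epithelial hemidesmosomes, rose by 1.70 ± 0.21 and Cd44 by 0.68 ± 0.07, while Itgav fell by 0.38 ± 0.06 and Itga3 fell by 0.33 ± 0.06. Of 20 genes of epithelial-mesenchymal transition and dedifferentiation, 5 rose and 3 fell (median 0.01). Tgfb2, a growth factor gene, rose by 1.86 ± 0.11, Epcam, an epithelial adhesion gene, by 1.19 ± 0.21 and Sox4 by 1.02 ± 0.06. Snai1, a transcription factor gene of mesenchymal transition, fell by 0.79 ± 0.20 (adjusted p = 0.0346, or 0.0647 when blocked by preparation). Itgb4 (4.61) and Epcam (3.43) also had day 1 means under 4.79, and the day 14 mean of Snai1 was 4.29.

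Cell cycle genes, whose products use the microtubule spindle, were lower late in culture: 18 of 28 fell and 0 rose in day 14 against day 1 (median -0.57), where 6.8% of all genes fell and 7.59% rose. Rrm2, of nucleotide synthesis, fell by 1.10 ± 0.07, Ccna2 fell by 0.95 ± 0.13, Ccne2 fell by 0.94 ± 0.20 and the proliferation marker gene Mki67 fell by 0.91 ± 0.19. By sex, the median change of the 28 genes was -1.12 in males and -0.16 in females, and Mki67 changed by -1.62 in males and -0.19 in females. The sex difference in that change passed for none of the 28 by limma (Mki67 -1.44, adjusted p = 0.38), with 27 of 28 negative. At day 14 all 28 were lower in males, 10 of them past the test (median difference -1.03). Over all genes, 0.809% passed as lower and 0.253% as higher in males at that day.

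**Figure D4:**
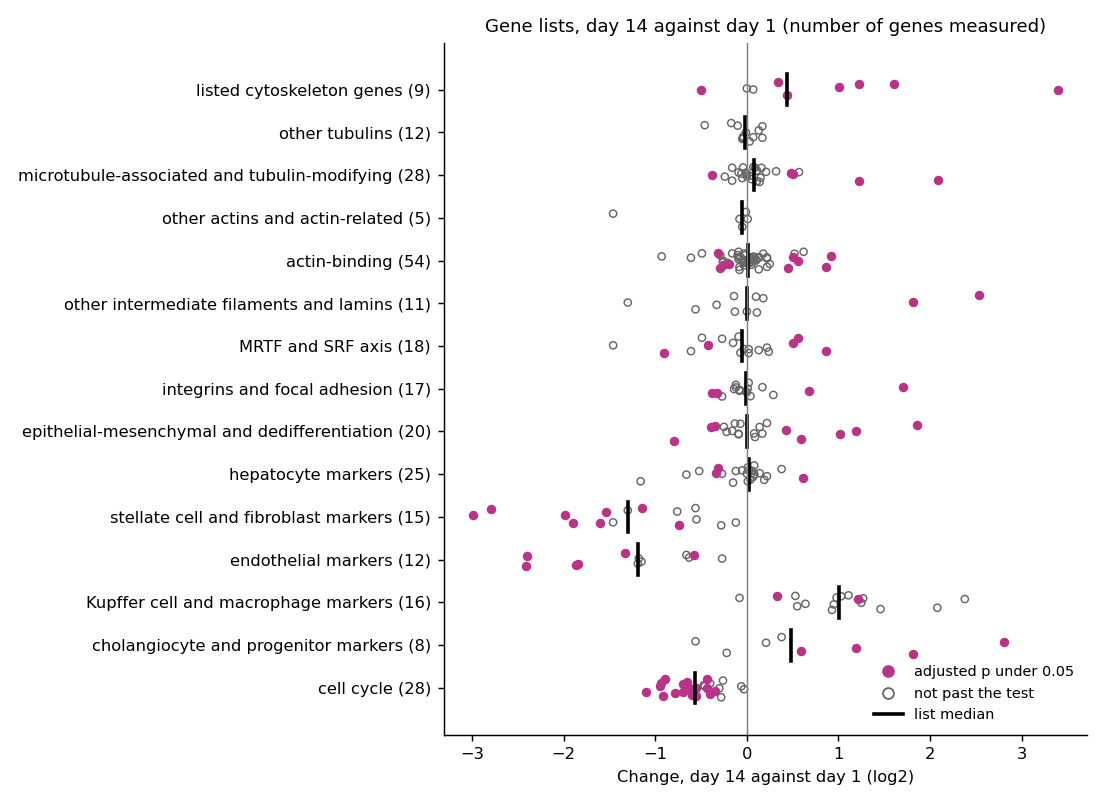
Log2 change in day 14 against day 1 (x axis) of single genes in each list (y axis, with the number measured), filled where the adjusted p was under 0.05, with the list median as a black bar. The 9 listed cytoskeleton genes have a median of 0.44, and the other tubulins one of -0.02.

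Liver preparations carry cells other than hepatocytes, several of which express Vim and Tmsb4x strongly, and in bulk RNA fewer cells of a type and less RNA per cell cannot be told apart. Stellate cell and fibroblast markers had 15 of 21 genes measured, of which 8 fell and 0 rose in day 14 against day 1 (median -1.30). The shares of all genes, here and for the endothelial markers, were 6.8% lower and 7.59% higher. Col3a1, a fibrillar collagen gene, fell by 2.99 ± 0.43, the vitamin A storage gene Lrat fell by 2.79 ± 0.40, Col1a2 fell by 1.99 ± 0.27 and Pdgfrb fell by 1.90 ± 0.44. The summed level of the list (the log2 of the sum of linear levels) was 9.20 to 11.50 at day 14, against 11.81 to 11.94 at day 1. In males it went from 11.81 to 11.90 at day 1 to 9.20 to 10.01 at day 14. In females it went from 11.85 to 11.94 to 11.48 to 11.50. Dcn, chosen after its values were seen, made up 48.7% to 54.2% of the sum at day 1 and 25.0% to 59.1% at day 14. Endothelial markers, 12 of 18 measured, had 6 lower and 0 higher (median -1.19), or 8 lower when blocked by preparation, led by Emcn, which fell by 2.41 ± 0.29, Cdh5, which fell by 2.40 ± 0.31, Eng, which fell by 1.86 ± 0.32, and Lyve1, which fell by 1.84 ± 0.42. Their summed level was 7.83 to 9.70 at day 14, against 9.75 to 10.23 at day 1. The day 14 means of Lrat (4.32), Emcn (2.98) and Cdh5 (3.39) lay under 4.79. Vim, a gene of both cell types, was higher at the day when these lists were lower. The lower stellate sum was mostly that of the males, while Vim changed by 0.40 in males and 0.47 in females. The part of stellate and endothelial cells in the Vim change was not tested.

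Summed Kupffer cell and macrophage markers were higher at day 14, as were Vim and Tmsb4x. Of 21 markers 16 were measured, and 2 rose in day 14 against day 1, as did 7.59% of all genes. Csf1r, the growth factor receptor gene of macrophages, rose by 1.21 ± 0.29 and Cd14 by 0.33 ± 0.08. With the preparation as a block 12 rose (median 1.01), and the share of all genes past the test was not counted with it. The day 1 mean of Csf1r was 4.57, under 4.79. The summed level was 10.48 to 11.81 at day 14, against 9.73 to 10.47 at day 1, with female 1 highest at days 7 and 14. Mean levels of the 16 at day 14 ran from 3.97 for Tyrobp to 9.89 for Cd14. Below 4.79 were Tyrobp, Adgre1 (4.22), Cd163 (4.34) and Clec4f (4.56), while Lyz2 (7.25), Cd5l (7.17), Laptm5 (7.08), Ctss (6.62), C1qb (6.55) and Vsig4 (6.52) were the highest after Cd14. Cd14 alone made up 49.3% to 74.0% of the sum at day 1 and 23.5% to 60.2% at day 14, and without it the sum was 9.15 to 11.42 at day 14, against 8.16 to 9.37 at day 1. These genes and this sum were chosen after their values were seen, and Timd4, Cd68, Aif1 and Ptprc were not analysed here. At day 14 this sum was 11.81 in female 1 and 10.48 in female 2, while Vim stood at 11.41 in both and Tmsb4x at 10.78 and 10.75. The part of macrophages in the Vim and Tmsb4x changes was not tested.

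Day 14 against day 1 had 7.59% of all genes higher and 6.8% lower, which holds for each list that follows. Cholangiocyte and progenitor markers had 8 of 15 measured, of which 4 rose and 0 fell (median 0.49): Cldn7, a tight junction gene, by 2.81 ± 0.28, Krt19 by 1.81 ± 0.16, Epcam by 1.19 ± 0.21 and Cd24a by 0.59 ± 0.08. When blocked by preparation, 5 rose and 1 fell, the last being Krt7. Their summed level was 11.97 to 12.30 at day 14, against 11.75 to 12.09 at day 1. Cldn7, Krt19 and Epcam had day 1 means of 3.51, 4.39 and 3.43, under 4.79, and Epcam averaged 4.62 at day 14. Of the mesothelial markers 4 of 10 were measured and 2 rose, Msln by 1.56 ± 0.19 and Krt19, with summed levels of 7.98 to 8.23 at day 14, against 7.62 to 8.04 at day 1. The day 1 mean of Msln was 3.98. Podxl, chosen after its values were seen, made up 68.6% to 74.7% of the mesothelial sum at day 1 and 36.5% to 54.2% at day 14. Without Podxl that sum was 6.85 to 7.50 at day 14, against 5.86 to 6.08 at day 1. The only lymphocyte marker measured of 16 was Klrb1b, a natural killer cell receptor gene, which fell by 3.04 ± 0.35. Of the hepatocyte markers, 1 of 25 rose and 2 fell (median 0.02), with summed levels of 15.89 to 16.10 at day 14, against 15.87 to 16.04 at day 1. That sum is weighted to genes near the highest value of 12.84, such as Alb (12.74 at day 14) and Apoa1 (12.60). It says little of lower markers such as Cyp2e1, with a change of -1.16 ± 0.66 (limma, adjusted p = 0.301). Apoa1 and Cyp2e1 were chosen after their values were seen, and of the 25 changes 15 were positive and 10 negative. Apoa2, an apolipoprotein gene, rose by 0.61 ± 0.08, Foxa2, a liver transcription factor gene, fell by 0.34 ± 0.08 and Apoc3 fell by 0.32 ± 0.09. Between the sexes at day 1, where Tubb2b, Tuba1a and Tmsb4x were higher in males, the macrophage sum was 10.39 to 10.47 in males, against 9.73 to 10.35 in females. Cd14 was 0.64 higher in males (adjusted p = 0.0434), the median difference of the 16 markers was 0.09, with 9 higher and 7 lower in males, and without Cd14 the sum was 8.45 to 9.05 in males, against 8.16 to 9.37 in females. The stellate sum was 11.81 to 11.90 in males, against 11.85 to 11.94 in females. The cholangiocyte and progenitor sum was 12.06 to 12.09 in males, against 11.75 to 11.97 in females. Of that list 6 genes were higher and 2 lower in males, with Cd24a 0.71 higher (limma, adjusted p = 0.0404). Hepatocyte sums were 15.87 to 15.92 in males and 16.03 to 16.04 in females, with 20 markers lower and 5 higher in males. Mesothelial sums were 7.62 to 7.67 and 7.96 to 8.04, and endothelial sums 9.75 to 10.15 and 10.09 to 10.23. At day 14 the stellate sum was 9.20 to 10.01 in males, against 11.48 to 11.50 in females. The part of these cells in the sex differences was not tested.

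**Figure D5:**
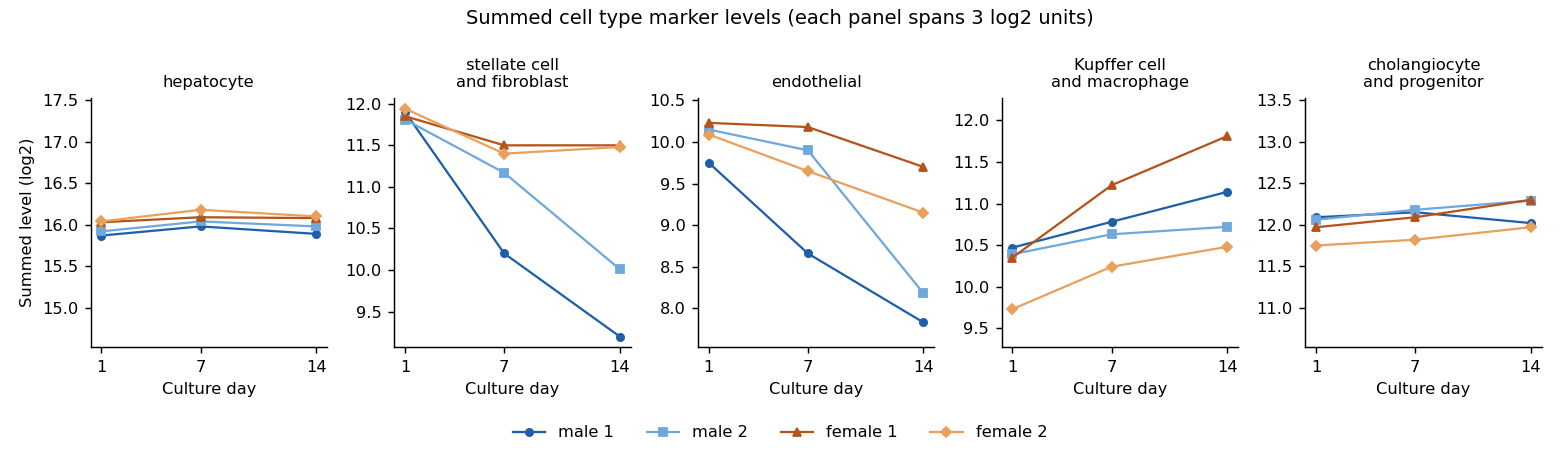
Summed marker level (y axis, log2 of the sum of linear levels, each panel spanning the same number of units) against culture day (x axis) for 5 cell type lists, with 1 line per preparation. Hepatocyte sums stay between 15.87 and 16.18, stellate and endothelial sums are lower at day 14 than at day 1, and macrophage sums are higher.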

How the data were processed

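Total RNA was labelled with biotin, per the labels. The values are log2 levels per probe set as deposited, and per the submitters' processing notes the tools were RMA, which averages the probes of a set, Transcriptome Analysis Console 4.0 and Partek 7.0, with no roles stated. How probe sets were filtered was not stated, and no scanner files were used. Of 13081 probe sets, 11889 had 1 gene symbol, 1192 had none and 0 had several. Where a symbol had more than 1 probe set, as 19 did, that of highest mean was used. Probe sequences were not analysed here, so near-identical copies (Tubb2a and Tubb2b, Tuba1a and its relatives, thymosin and actin copies) may read each other, and their identity is uncertain.

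One limma 3.58.1 model (R 4.3.3, with lmFit, contrasts.fit and eBayes) with a mean for each of 6 groups gave all tests except sex over all days. It took the 12 arrays as independent, though the arrays of a preparation come from 1 pool. Tests were two-sided, with Benjamini-Hochberg adjustment over 11861 genes and a call at an adjusted p under 0.05. A day change is averaged over the sexes. Sex over all days was a separate limma fit that compared 2 male with 2 female preparation means. With 12 arrays, their number limits precision, and the median standard error of a day change was 0.0946. Each ± on a change is a standard error. The fit was tested on simulated data whose arrays were drawn as independent. That check therefore cannot show how the fit behaves where arrays share a pool. Alternatives were the preparation as a fixed or random block, a trended and robust spread, median centring, a second quantile normalization, a mean of at least 6, and leaving out each preparation. The labels say that same-numbered arrays of a sex are 1 pool, which pairs them over the days. Their deviations from the group means correlated at 0.036 to 0.324 over genes.

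Members and lists were chosen with earlier results of these data known. Named genes are the members, up to 4 called genes per list with the largest change in day 14 against day 1 (the 1 largest where none was called), the 5 most correlated genes for Dpysl3, Tuba1a and Vim, and Alb and Hnf4a. Any other gene is marked in the text as a later choice.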

Additional observations from a re-analysis of the deposited data

Results flagged for a closer look

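For single genes at a day or between days, 54 sets of 4 preparations were examined for 1 that stood apart by Dixon's test, where chance flags about 1 in 20. In 3 sets a preparation stood apart. The Dpysl3 change in day 7 against day 1 was 2.46 in male 2, against 1.66 to 1.79 in the others. The Actb level at day 14 was 12.28 in female 1, against 12.32 in each of the others. The Tmsb10 change in day 7 against day 1 was -0.13 in female 1, against 0.03 to 0.05 in the others.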

How the results depend on the processing

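No member's change turned its direction where it was called. With 1 preparation left out, which leaves fewer arrays and 1 array in some groups, assumed to vary like the rest, the number of genes past the test was 0 to 2 in day 7 against day 1, 0 to 0 in day 14 against day 7, 4 to 6 in day 14 against day 1, and 0 to 0 for males against females at day 1 and at day 7. For males against females at day 7, where 1 gene passed, 2 did so with the preparation as a random block, 2 after median centring, 2 with a mean of at least 6 and 3 with a trended and robust spread. At day 14 the 0 became 3 with a trended and robust spread and 1 with a mean of at least 6. Over all days the 0 became 5 and 3 under those settings. The sex difference in the change of day 14 against day 1 passed for 1 gene, Tmsb4x (adjusted p = 0.0371), with a trended and robust spread. The causes were not tested. No share of all genes past the test was counted under any alternative setting, the block included. Those counts therefore have no such share beside them. With the preparation as a fixed replicate block, 5 genes passed in day 7 against day 1, 4 in day 14 against day 7 and 7 in day 14 against day 1. The block ended the call of Tubb6 and gave one to Dpysl3, as stated above, and changed no other call of these genes. It moved the macrophage markers past the test in day 7 against day 1 to 6 of 16, where 0 passed without it, and the endothelial ones to 3 of 12, where 1 passed without it. Of 42 other named genes called in day 14 against day 1, 18 passed with any 1 preparation left out, among them Map1b, Marcks, Sox4, Tgfb2, Cd44 and Rrm2, and 6 lost their call whichever was left out (Stmn1, Itga3, Lyve1, Csf1r, Cd14 and Apoc3). That check was chosen after seeing the data. Leaving the highest gene out of each marker sum was also chosen after seeing the data. Apoc3 also lost its call after a second quantile normalization (adjusted p = 0.0507). Hnf4a gained a call with a trended and robust spread (adjusted p = 0.0188). Using another probe set of a gene was planned and not run, since each of the 9 genes had 1.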
